A study of Mus musculus with 4 samples.

Results

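The genes described here are Txnip, its antisense neighbour Gm15441, the arrestin domain containing genes Arrdc1 to Arrdc4, and the glucose-sensing factors Mlxip, Mlxipl and Mlx, 9 genes of the 55335 in the deposited table of gene counts. They were found by their symbols and were chosen by the response of Txnip, Gm15441 and Arrdc4 to lactate, as already seen in these libraries, and by membership of the same families and pathway. The measured difference between lactate and control is therefore given for them as a description, without a test. RNA-seq was carried out on AB2.2 mouse embryonic stem cells (ESCs), an established line, with 2 control libraries and 2 libraries from cells that had been kept in 50 mM lactate for 24 h. All 4 libraries came from cells grown on mouse embryonic fibroblast feeders in a medium that held 1 μM PD0325901 (an inhibitor of MEK), 3 μM CHIR99021 (an inhibitor of GSK3), leukemia inhibitory factor at 1000 U/ml and fetal bovine serum at 15%. Nothing in the labels says whether the libraries of a group came from separate cultures, so the spread between them may be technical. Counts are given as reads and as CPM, in which reads are scaled to a common library total adjusted by TMM, and errors are the SD over the 2 libraries of a group (n = 2) or, for a log2 fold change, its standard error.

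Alpha-arrestins are adaptor proteins that bring ubiquitin ligases of the NEDD4 family to membrane proteins. The alpha-arrestin encoded by Txnip also binds thioredoxin, and it promotes the internalisation of glucose transporters. Mlxip encodes MondoA and Mlxipl encodes ChREBP, which respond to glucose 6-phosphate, pair with Mlx, and bind carbohydrate response elements in the promoters of Txnip and Arrdc4, among others. These elements consist of a pair of E-box half-sites set a fixed distance apart, and CCAAT boxes, the sites of NF-Y, lie beside them in the Txnip promoter.

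The promoters of Txnip and Arrdc4 are printed since these are the protein-coding genes of the set with the largest difference in lactate. Each window is the RefSeq sequence on GRCm38.p6 from 250 bases before the annotated start to 50 bases after it, read 5′ to 3′ on the strand of the gene, at chr3:96557707-96558006 on the plus strand for Txnip and at chr7:68749189-68749488 on the minus strand for Arrdc4. Capitals mark the matches to CCAAT (written ATTGG where it is on the other strand), to the E-box CACGTG, and to paired half-sites, meaning CACGNG or CNCGTG followed after 5 bases by another of these.
Txnip promoter: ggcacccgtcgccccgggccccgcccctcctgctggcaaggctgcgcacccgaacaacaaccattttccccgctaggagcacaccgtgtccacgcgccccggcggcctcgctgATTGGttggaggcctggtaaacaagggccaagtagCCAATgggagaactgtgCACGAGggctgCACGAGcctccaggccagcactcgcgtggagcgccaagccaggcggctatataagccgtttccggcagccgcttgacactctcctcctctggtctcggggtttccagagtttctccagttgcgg
Arrdc4 promoter: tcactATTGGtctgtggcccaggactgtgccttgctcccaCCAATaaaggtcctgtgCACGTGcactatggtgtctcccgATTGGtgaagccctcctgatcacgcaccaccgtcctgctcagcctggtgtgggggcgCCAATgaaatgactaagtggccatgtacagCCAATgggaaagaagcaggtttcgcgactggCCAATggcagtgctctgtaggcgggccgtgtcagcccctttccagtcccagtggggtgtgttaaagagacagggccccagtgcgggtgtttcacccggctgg
The Txnip window held 1 pair of half-sites, from base -85 to base -69 counted from the start, and 2 CCAAT boxes before it, at -137 to -133 and at -102 to -98. The window of Arrdc4 held 6 CCAAT boxes and 1 E-box at -193 to -188. Of 32851 promoter windows of the same length, 0.0822% (27 windows) held such paired half-sites, 37.4% at least 1 CCAAT box, 11.7% at least 2 and 0.0791% (26 windows) at least 6, and 7.15% held the E-box. The letters of the half-site pair were set after the Txnip promoter had been read, so its rarity is no finding about Txnip. RefSeq windows were found for 8 of the 9 genes, 11 windows in all. Outside Arrdc4, an E-box stood in the window of Mlx at -40 to -35 and in 1 window of Mlxipl at -98 to -93. CCAAT boxes were not particular to Txnip and Arrdc4. The window of Arrdc2 held 3, those of Mlx and Mlxip 2 each, and windows of Mlxipl and Arrdc3 held 1, while that of Arrdc1 held 0. No window of these genes matched the carbohydrate response element consensus, which 0.0274% of all windows did. A match is a run of letters and was not tested for binding.

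Txnip had 4615 and 5726 reads in control ESCs and 14900 and 18979 after lactate. As CPM these were 267 and 302 in control against 802 and 962 in lactate. Both lactate libraries thus lay far above both controls, and within each group replicate 2 was the higher. The mean went from 284 ± 24.7 to 882 ± 113 CPM, which is 3.10-fold or 1.63 on the log2 scale (standard error 0.17). The gain of 597 CPM was the third largest of the 18661 genes tested, whereas by fold change Txnip ranked 217. Txnip lies on chromosome 3 from 96557957 to 96561883 on the plus strand of GRCm38.

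Gm15441, an antisense transcript without a known protein, is annotated across the whole of Txnip on the minus strand, from 96555765 to 96566801 of chromosome 3. Its counts were 1635 and 1689 in control and 5617 and 5271 in lactate. The groups did not overlap, the mean going from 91.8 ± 3.91 to 285 ± 24.7 CPM, and the log2 fold change of 1.63 (standard error 0.14) matched that of Txnip to the second decimal. The order of the replicates differed between the genes, since Gm15441 was higher in lactate replicate 1 (302 CPM) than in replicate 2 (267 CPM) and Txnip was lower.

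The reads of this locus were shared out differently in the deposited tables. In GENCODE M21, a different release from the M23 used for the counts, merged exons of Txnip and Gm15441 overlap over 606 bases, which are 19.4% of the exon bases of Txnip and 36.2% of those of Gm15441. In the count table Gm15441 took 26.2% and 22.8% of the reads of both genes in control and 27.4% and 21.7% in lactate. In the RSEM expected counts, which assign reads to transcripts by a model, it took 0.0923% and 0.114% in control and 0.104% and 0.0457% in lactate. The expected counts of Gm15441 were only 5.24 and 7.69 in control and 19.51 and 9.96 in lactate. Those of Txnip were 5670 and 6745 in control and 18710 and 21804 in lactate.

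The sum over both genes differed little between the tables. It was 6250, 7415, 20517 and 24250 reads in the count table for control 1, control 2, lactate 1 and lactate 2, and the ratio of the count table to the expected counts was 1.10 in 3 libraries and 1.11 in lactate replicate 2. With both rows added together the log2 fold change was 1.63 (standard error 0.15), and from the expected counts that of Txnip alone was 1.61 (standard error 0.15). The difference at the locus was thus of the same size in each of these, but how much of it belonged to the antisense transcript could not be read from these tables. No source used here states whether strand was used in counting. Without strand, reads from the exon bases that a gene shares with its antisense partner cannot be told apart. Counts are given per gene, so reads from exon bases outside the overlap could not be seen separately. Such a gap between the tables was uncommon, since 39 of the 4378 genes with a mean of at least 1000 counts, Gm15441 among them, had a mean expected count under 1% of the mean count.

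**Figure D1:**
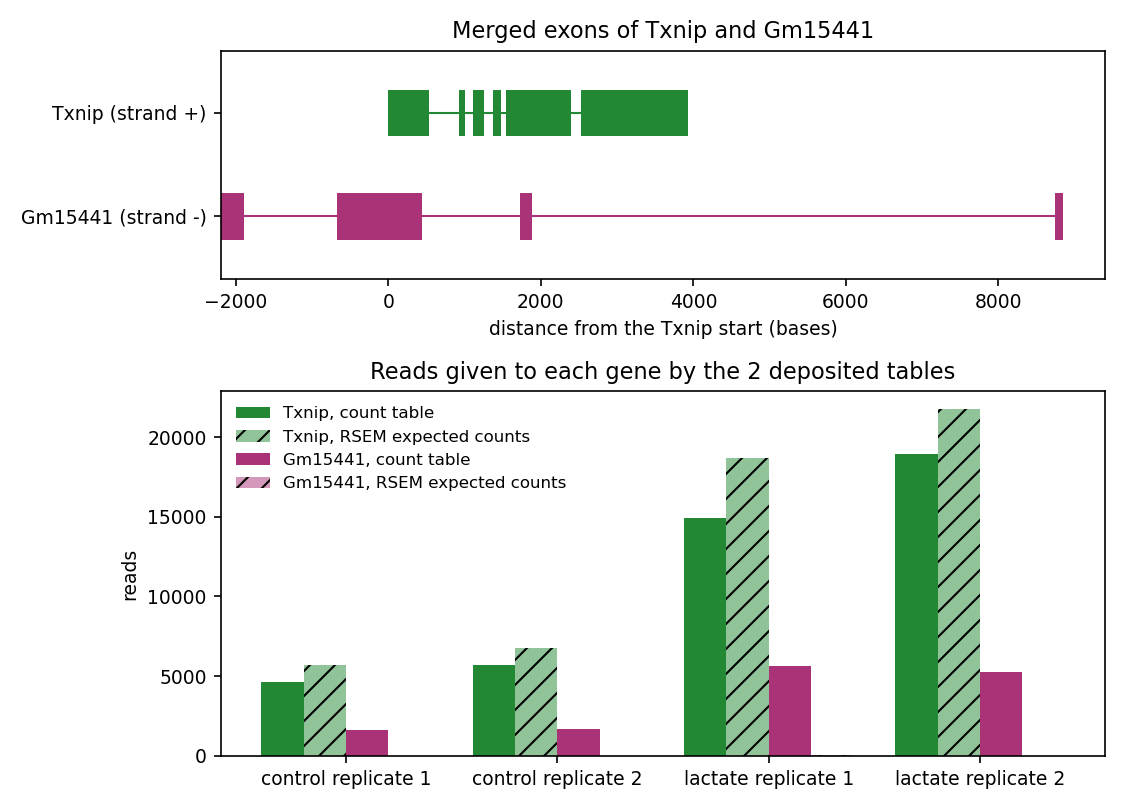
The upper panel maps the merged exons of Txnip and Gm15441 by their distance in bases from the Txnip start, and the lower panel shows as bars the reads given to each gene in each of the 4 libraries by the count table (solid) and by RSEM expected counts (hatched). The bars of Gm15441 reach 5617 reads in the count table and at most 19.51 in the expected counts, while the Txnip bars are highest in the lactate libraries in both tables.

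Among the Arrdc genes 2 were higher in lactate and 2 lower. Arrdc4, known like Txnip as a target of MondoA and a brake on glucose uptake, had 1176 and 1231 reads in control and 3370 and 3452 in lactate. The groups were well apart, at 66.4 ± 2.21 and 178 ± 4.46 CPM, and the replicates of each group were close. The log2 fold change was 1.42 (standard error 0.13), or 2.68-fold. Arrdc4 lies on chromosome 7 from 68736995 to 68749241 on the minus strand.

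Arrdc3, known for its part in adiposity and in the turnover of beta-adrenergic receptors, had 1282 and 1308 reads in control and 1986 and 1869 in lactate. It was higher in both lactate libraries, at 101 ± 8.55 against 71.5 ± 3.67 CPM, and differed by 0.49 on the log2 scale (standard error 0.14). This was well under the difference of Arrdc4. Arrdc3 lies on chromosome 13 from 80883384 to 80896042 on the plus strand.

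Arrdc1, which takes part in budding of vesicles from the plasma membrane, and Arrdc2 were low and lay on the other side. Arrdc1 had 185 and 210 reads in control and 134 and 172 in lactate. Its CPM of 10.9 ± 0.26 in control and 7.96 ± 1.07 in lactate gave a log2 fold change of -0.45 (standard error 0.19). Arrdc2 had 225 and 311 reads in control and 188 and 221 in lactate. Its raw reads nearly met between the groups, and its CPM of 14.7 ± 2.39 and 10.7 ± 0.77 gave -0.46 (standard error 0.19) on the log2 scale. The lower control and the higher lactate library were at 10.7 and 8.72 CPM for Arrdc1 and at 13.01 and 11.20 CPM for Arrdc2, so the groups were close in both genes. The log2 fold change of Arrdc2 was -0.29 without control replicate 2 and -0.64 without control replicate 1. Arrdc1 lies on chromosome 2 from 24925352 to 24935252 and Arrdc2 on chromosome 8 from 70835129 to 70839720, both on the minus strand.

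**Figure D2:**
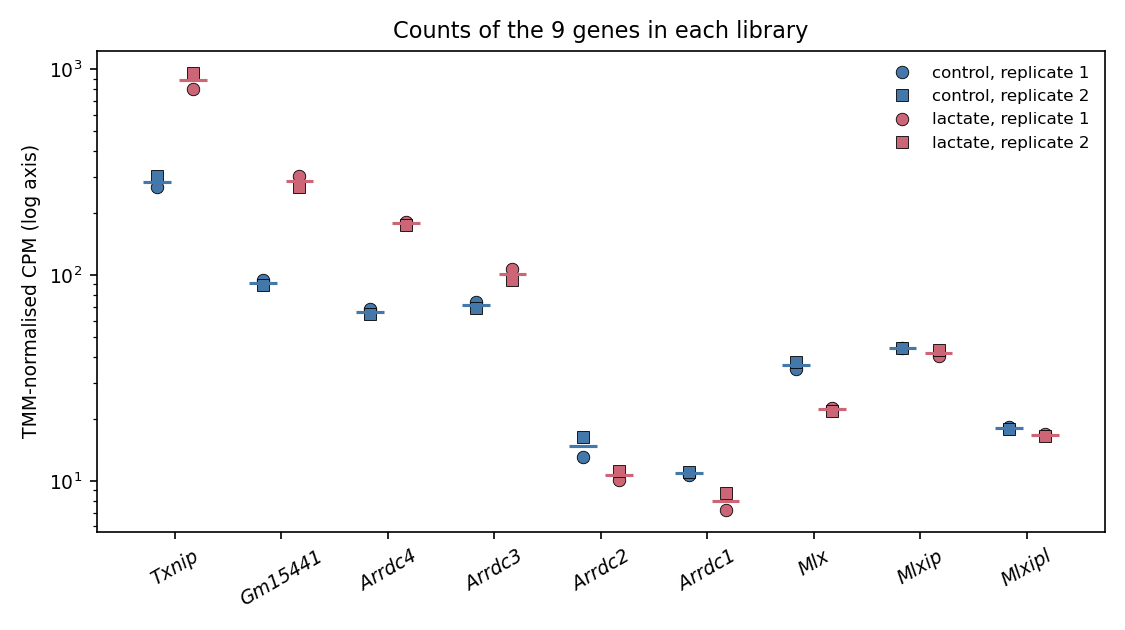
TMM-normalised CPM of the 9 genes in each library on a log axis, with control and lactate libraries as separate points. Txnip, Gm15441 and Arrdc4 show the widest gaps between groups (284 to 882, 91.8 to 285 and 66.4 to 178 CPM in the means), whereas the points of Mlxip and Mlxipl nearly coincide.

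For the factors that read glucose the differences were smaller than their standard errors. Mlxip, which encodes MondoA, had 762 and 843 reads in control and 749 and 856 in lactate. At 44.2 ± 0.26 and 41.8 ± 2.19 CPM its log2 fold change was -0.08 (standard error 0.13). Its FPKM leaned to the other side, from 6.46 ± 0.37 to 6.99 ± 1.34 with overlapping groups, so no direction is given for this gene. Mlxipl, which encodes ChREBP, had 315 and 340 reads in control and 313 and 325 in lactate, 18.1 ± 0.21 against 16.7 ± 0.26 CPM, and its log2 fold change was -0.12 (standard error 0.15). The raw reads of the groups overlapped in both genes. In CPM both lactate libraries lay just below both controls, the nearest values being 44.1 in control and 43.4 in lactate for Mlxip. For Mlxipl they were 17.9 and 16.8. Mlxip lies from 123394798 to 123457932 and Mlxipl from 135089890 to 135138382 of chromosome 5, both on the plus strand.

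Mlx, the shared partner of MondoA and ChREBP, had the lowest log2 fold change of the 9 genes. It had 605 and 720 reads in control and 422 and 433 in lactate. The CPM of 36.5 ± 2.10 and 22.3 ± 0.53 were clearly apart and gave a log2 fold change of -0.71 (standard error 0.14), or 0.612-fold. Mlx lies on chromosome 11 from 101087277 to 101092207 on the plus strand. Its exons share 385 bases, 19.3% of its own, with those of Psmc3ip on the other strand, whose counts were 525 and 444 in control and 394 and 392 in lactate, a difference of -0.39 on the log2 scale (standard error 0.18). The RSEM expected counts gave -0.84 (standard error 0.14) for Mlx. Mlxip and Mlxipl share 3.21% and 4.24% of their exon bases with antisense genes, Gm15747 and Gm43500, which had at most 16 reads in any library.

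Set against all genes, 4 of the 9 had both lactate libraries above both controls, as did 27% of the 18661 genes tested, and 5 had both below, as did 25.9%. With edgeR's quasi-likelihood test, counting genes with a Benjamini-Hochberg adjusted p under 0.05 and over 2-fold, 3 of the 9 were counted as higher, Txnip, Gm15441 and Arrdc4, against 0.552% of all genes, and 0 as lower against 0.348%. DESeq2 counted the same 3 and no others, against 1.12% higher and 0.993% lower among the genes to which it gave an adjusted p. These values took part in the choice of the genes, and nothing is read from them. All 9 genes passed the filter on low counts.

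**Figure D3:**
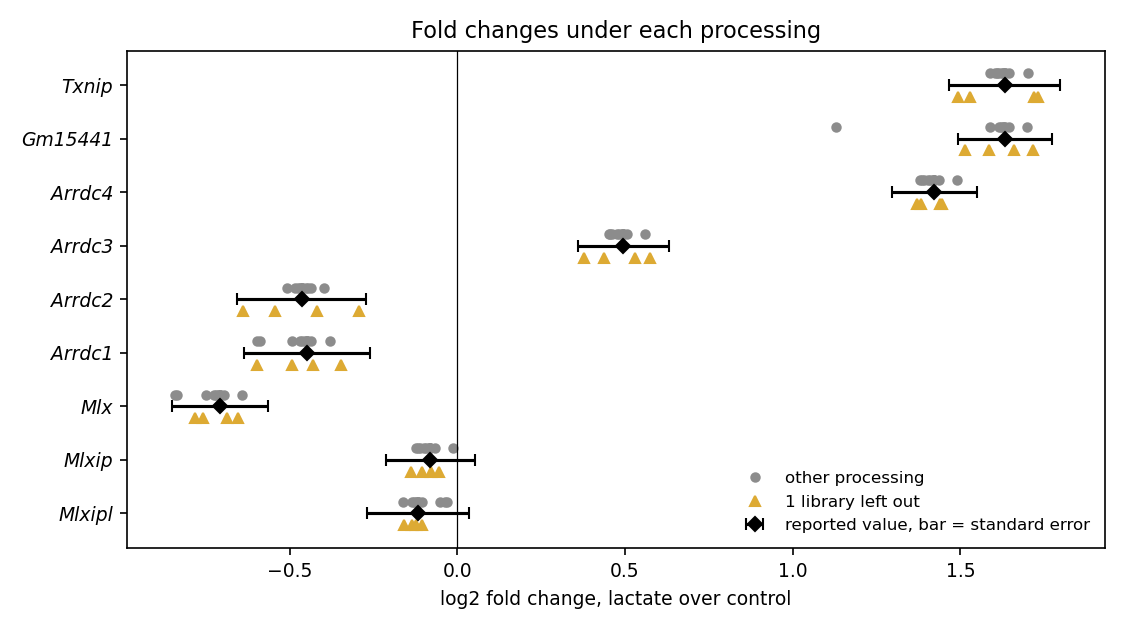
Log2 fold change of each of the 9 genes, lactate over control, as reported (black diamond with its standard error) and under each alternative processing (small points). Txnip spans 1.49 to 1.73 and Arrdc4 1.37 to 1.49 over the alternatives, Mlx spans -0.84 to -0.64, and no gene crosses 0.

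Levels were compared between genes only per length, by the deposited FPKM. In control, Txnip stood at 164 ± 3.20 FPKM, followed by Mlx at 27.7 ± 0.31, Arrdc4 at 22.8 ± 1.10, Arrdc3 at 20.2 ± 2.81, Arrdc1 at 9.90 ± 0.29, Mlxipl at 8.80 ± 2.26, Arrdc2 at 8.27 ± 0.21, Mlxip at 6.46 ± 0.37 and Gm15441 below 1. Arrdc4 and Arrdc3 overlapped, and the libraries of Mlxipl spanned those of Arrdc1 and Arrdc2. The other neighbours in this order did not overlap. In lactate the order by mean FPKM was Txnip at 534 ± 35.0, Arrdc4 at 56.5 ± 2.66, Arrdc3 at 29.2 ± 3.92, Mlx at 17.9 ± 4.02, Mlxipl at 8.51 ± 0.13, Arrdc1 at 7.06 ± 0.78, Mlxip at 6.99 ± 1.34, Arrdc2 at 6.75 ± 0.65 and Gm15441 last, and the values of Arrdc1, Mlxip and Arrdc2 overlapped. Mlx thus stood above Arrdc4 and Arrdc3 in control and below both in lactate. Among all 55335 genes Txnip went from rank 581 to rank 160 by mean FPKM.

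The control order below Arrdc3, and the place of Gm15441, depended on the table. Counts per kilobase of merged exon of GENCODE M21 were taken from the count table and scaled to the gene reads of each library, without TMM. They gave 88.9 for Txnip and 53.4 for Gm15441, which then came next to it. Mlx at 17.8, Arrdc4 at 16.0 and Arrdc3 at 11.1 kept their order. Mlxip at 5.19 then stood above Arrdc2 at 4.45, Arrdc1 at 4.23 and Mlxipl at 3.18. The log2 fold changes given here were fitted to counts and use no length. RSEM gives each gene a length per library, so a change in FPKM can differ from them. For Mlxip these lengths were 7131 and 6806 bases in control and 6892 and 5953 in lactate.

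**Figure D4:**
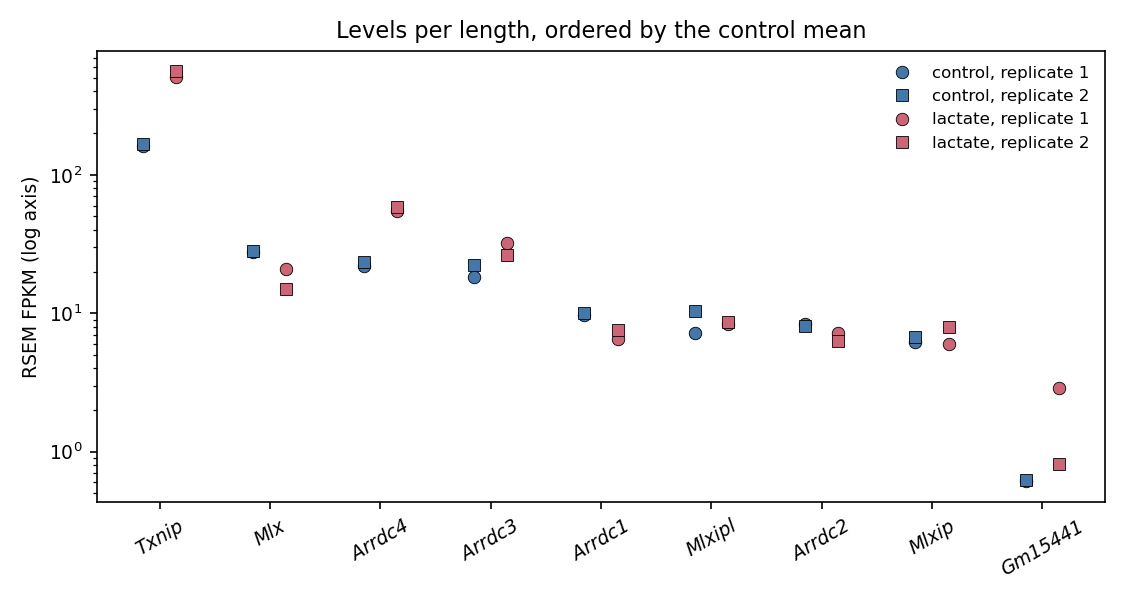
RSEM FPKM of the 9 genes per library on a log axis, ordered by the control mean. Txnip is the highest gene in every library (164 ± 3.20 FPKM in control and 534 ± 35.0 in lactate), and Gm15441 is the lowest.

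The genes whose pattern over the 4 libraries was most like that of Txnip were looked for by the Euclidean distance between log2 CPM values centred on each gene's mean. Among genes with a name, the nearest 5 were Rhbdl2 at 0.0787, Treml2 at 0.143, Pcdh1 at 0.154, Tmem74 at 0.157 and Fbxo47 at 0.168, where the median over all genes was 1.68. Of the 9 genes Arrdc4 came next to Txnip, at 0.350 (rank 67), followed by Gm15441 at 0.363 (rank 74) and Arrdc3 at 1.19 (rank 2295), while the others were between 1.72 and 2.34. By Pearson correlation in place of the distance the nearest 5 shared 0 genes with these. Over only 4 libraries, in which the lactate difference sets most of the pattern, the likeness is a description. The response of Arrdc4 and Gm15441 to lactate took part in the choice of the genes, so nothing is read from their closeness to Txnip.

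Other targets of MondoA and ChREBP lay on both sides of 0. Of 20 further genes listed as targets 18 could be tested. By edgeR's quasi-likelihood test with the rule above 0 were higher and 2 were lower (0.552% and 0.348% of all genes). Their median log2 fold change was -0.07, where that of all genes was 0.01, and 7 of 18 were positive. At an unadjusted p under 0.05 by edgeR, 2 were higher and 4 lower, where 11.7% of all 18661 genes were higher and 11.4% lower at that threshold. DESeq2 called the same numbers as edgeR, 0 higher and 2 lower (1.12% and 0.993% of the genes to which it gave an adjusted p). The median was -0.23 without control replicate 1 and -0.28 without lactate replicate 2. Bhlhe40, a circadian and hypoxia-responsive repressor, had 2006 and 1932 reads in control and 713 and 616 in lactate. It fell by 1.65 on the log2 scale (standard error 0.16, edgeR adjusted p = 0.0320).

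Fasn, the fatty acid synthase, had 10711 and 13512 reads in control and 5674 and 5939 in lactate. It fell by 1.14 on the log2 scale (standard error 0.15, edgeR adjusted p = 0.0406). The highest value in the list was that of Pklr, the liver pyruvate kinase, at 1.07 (standard error 0.41), which rested on 7 and 16 reads in control and 27 and 24 in lactate and had an edgeR adjusted p of 0.188. Tkt, a transketolase and with Fasn the most abundant in CPM, had -0.30 (edgeR adjusted p = 0.246). Klf10, another target known to respond to glucose and named here after its values were seen, had 0.62 (standard error 0.14, edgeR adjusted p = 0.0829), with 179 and 189 CPM in control against 304 and 259 in lactate. Fgf21, a secreted hormone, and G6pc were too low for the test. Fgf21 had no read in control and 8 and 14 in lactate. Its mean in lactate, 0.57 CPM, was 3.44 times a floor of 3 reads per library in control (0.166 CPM). With so few reads this ratio is no lower bound on a fold change.

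The genes for MAX and for proteins that pair with MAX or MLX were mostly lower in value. None of the 10 was called by edgeR (0.552% of all genes higher and 0.348% lower) or by DESeq2 (1.12% and 0.993%). Their median log2 fold change was -0.41, with 3 of 10 positive, and at an unadjusted p under 0.05 by edgeR 2 were higher and 5 lower (11.7% and 11.4% of all genes). Mnt, a repressor that pairs with both MAX and MLX, passed the adjusted p alone, at -0.90 (standard error 0.13, edgeR adjusted p = 0.0482), which is under 2-fold. Its CPM were 62.2 and 57.6 in control and 33.0 and 31.1 in lactate. The lowest value was that of Mxd4 at -0.97 (edgeR adjusted p = 0.161) and the highest that of Myc at 0.64 (edgeR adjusted p = 0.185). Mga, which was the most abundant in CPM, had -0.21, and Mycn, the next, had 0.63 (edgeR adjusted p = 0.0674).

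Of the genes for glucose uptake and phosphorylation 11 of 16 could be tested, and edgeR called 0 (0.552% of all genes higher and 0.348% lower). At an unadjusted p under 0.05 by edgeR, 1 was higher and 3 were lower (11.7% and 11.4% of all genes). DESeq2 called 0 higher and 1 lower (1.12% and 0.993%). The median was -0.17 with 4 positive, but 0.06 without lactate replicate 1 and -0.36 without lactate replicate 2. Slc2a3, the transporter GLUT3, was at 2043 ± 289 CPM in control and 2439 ± 484 in lactate, with overlapping libraries and a difference of 0.26 on the log2 scale (standard error 0.21). Slc2a1, the transporter GLUT1 and a known cargo of Txnip, was named after its values were seen. It had 457 and 370 CPM in control and 248 in both lactate libraries, a log2 fold change of -0.74 with an edgeR adjusted p of 0.0688. Hk2, a hexokinase, went from 508 ± 26.7 to 330 ± 37.5 CPM with -0.62 and an edgeR adjusted p of 0.0875. The extremes were Slc5a1, a sodium-coupled glucose transporter, at -1.05 (edgeR adjusted p = 0.0590), and Hkdc1 at 1.29 (edgeR adjusted p = 0.108), which had at most 20 reads.

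The thioredoxin system, to which the binding partner of Txnip belongs, held 18 genes, all tested. Of these edgeR called 0 (0.552% of all genes higher and 0.348% lower) and DESeq2 0 (1.12% and 0.993%). By edgeR 0 were higher and 2 lower at an unadjusted p under 0.05 (11.7% and 11.4% of all genes), the median log2 fold change was -0.22, and 4 of 18 were positive. Prdx1, a peroxiredoxin, had 607 ± 87.0 CPM in control and 483 ± 83.0 in lactate, and Txnrd1, a thioredoxin reductase, 391 ± 2.02 and 325 ± 37.0. Their log2 fold changes were -0.33 and -0.27. Srxn1, the sulfiredoxin that repairs peroxiredoxins, had the lowest value at -0.60 (edgeR adjusted p = 0.0814) and Txnrd2 the highest at 0.44. Txn1, thioredoxin itself and named after its values were seen, had -0.37 with a standard error of 0.29.

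Of 8 NEDD4-family ligases tested, edgeR called 0 (0.552% of all genes higher and 0.348% lower) and DESeq2 0 (1.12% and 0.993%). At an unadjusted p under 0.05 by edgeR 1 was higher and 0 lower (11.7% and 11.4% of all genes). The median log2 fold change was -0.04. Nedd4, the most abundant in CPM, had -0.22 at 1934 ± 137 CPM in control and 1665 ± 192 in lactate, and Wwp1 had 0.06. Itch, a ligase that targets Txnip, had the highest value at 0.49 (standard error 0.14, edgeR adjusted p = 0.123), and Smurf2 the lowest at -0.31. Other arrestin-fold genes were listed as 9, of which 8 had a row and 5 were tested. Vps26a, a retromer subunit, had 0.05, Vps26b -0.18 and Arrb2, a beta-arrestin, 0.15, with a median of -0.07, and Arrdc5 had only 5 and 10 reads in control and 9 and 14 in lactate.

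The AMPK list, whose kinase phosphorylates Txnip, had 9 of 10 genes tested with a median of -0.08, between -0.29 for Stk11, the upstream kinase LKB1, and 0.25 for Prkaa2, a catalytic subunit. For the NLRP3 inflammasome, which the Txnip protein is known to bind, 4 of 7 genes were tested, with a median of 0.09, between -0.55 for Nlrp3 (6 to 14 reads per library) and 0.38 for Nek7, and Pycard had -0.02. The NLRP3 median was -0.12 without control replicate 1 and -0.19 without lactate replicate 2, so its sign rested on single libraries. In the arrestin-fold, AMPK and NLRP3 lists edgeR called 0 and DESeq2 called 0. There, 0 passed an unadjusted p under 0.05 by edgeR (11.7% of all genes higher and 11.4% lower). Over all 8 lists together, 98 genes were listed, 82 tested, and 0 called higher and 2 called lower by edgeR. Over all genes edgeR called 0.552% higher and 0.348% lower, so a count of 0 in a short list is not read as a result.

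**Figure D5:**
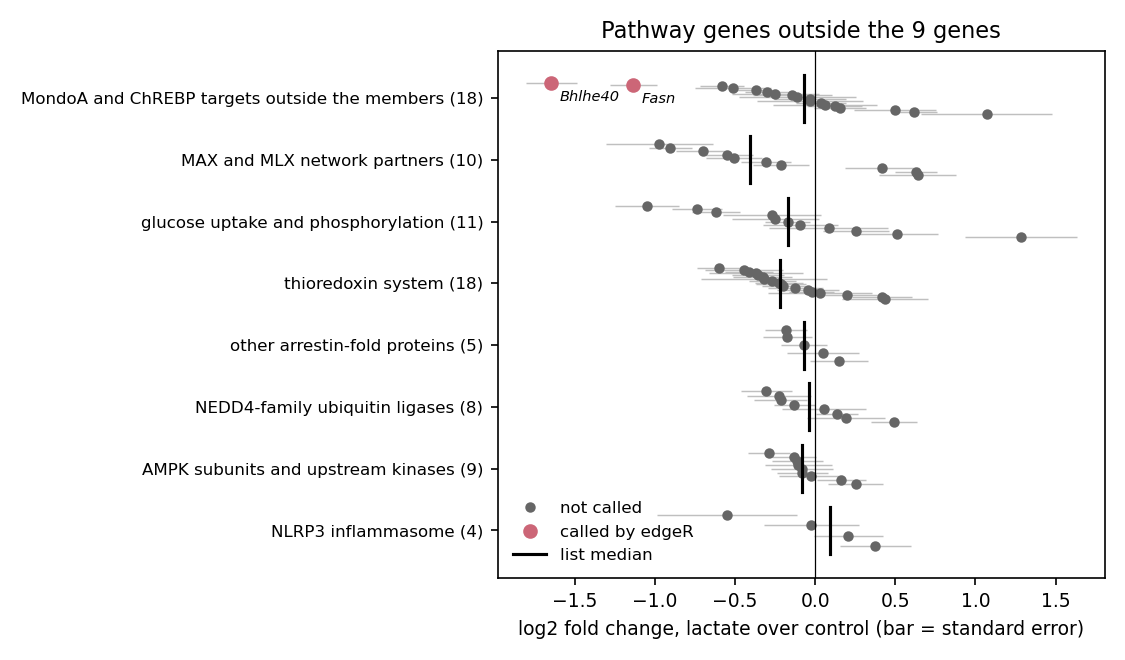
Log2 fold change of each tested gene of the 8 pathway lists outside the 9 genes, lactate over control, with standard errors as bars and called genes marked. Only Bhlhe40 (-1.65) and Fasn (-1.14), both in the list of MondoA and ChREBP targets, are called.

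The libraries held between 18067562 and 19077885 reads on genes, and no library stood far from its group in depth. Mitochondrial transcripts took 5.48% and 2.43% of the reads in control and 5.72% and 2.82% in lactate, so they differed between replicates rather than between groups, and leaving them out gave 1.62 for Txnip on the log2 scale. The 8 markers of ESCs summed to 4540 and 4845 CPM in control and 4900 and 5658 in lactate, and each was detected in every library. The 12 markers of feeder fibroblasts were present too, and summed to 2997 and 3169 CPM in control and 3950 and 3514 in lactate, of which Fn1 made up most. By edgeR 0 of these 20 markers were called. The higher feeder sum in lactate was that of Fn1, since the other 11 markers summed to 608 and 821 CPM in control and 628 and 668 in lactate, with overlapping groups. Among them the collagens Col1a1, Col1a2 and Col3a1 had -0.19, -0.56 and -0.90 on the log2 scale, and Pdgfra and Pdgfrb 0.99 and 0.56. The part of feeder RNA in the values of the 9 genes was not tested. In bulk RNA fewer cells of a type and less RNA per cell cannot be told apart.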

How the data were processed

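RNA-seq libraries of AB2.2 mouse ESCs, 2 control and 2 lactate, were analysed from the tables the authors deposited. The authors deposited raw counts of reads per gene (and per family of transposable elements, not used here), made from trimmed and mapped reads. For each library the authors also computed expected counts, TPM and FPKM with RSEM from the mapped reads. The authors' processing notes name cutadapt 1.16, STAR and RSEM and the mm10 build. Per the study's methods, genes were counted by the GeneCounts option of STAR on GENCODE M23. The strand setting, and how the rows of transposable elements were made, are not given in the sources used here. TPM served only as an alternative to FPKM.

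Gene counts were filtered by edgeR's filterByExpr, which left 18661 genes, scaled by TMM and tested by the quasi-likelihood test of edgeR 4.0.16 in its legacy form, with limma 3.58.1 in R 4.3.3, and with Benjamini-Hochberg adjustment over all genes. Calls needed over 2-fold and an adjusted p under 0.05. Standard errors were obtained by dividing the log2 fold change by the root of F. A permutation test of 2 libraries against 2 cannot give a two-sided p under 0.333, so none is given. Positions, exon overlaps and exon lengths come from GENCODE M21 on GRCm38, another release than the M23 of the counts, so they may differ from the exons counted. Promoters come from RefSeq. The method was tested on simulated data.

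The 9 genes, the gene lists and the alternatives were chosen with earlier results of these data known. Named in each list are the called genes, the 2 most abundant in CPM and those with the highest and lowest log2 fold change. Some genes, among them Klf10, Fgf21, Slc2a1 and Txn1, were named outside this rule. Alternatives were DESeq2 1.42.0, RLE factors, library totals alone, no filter, a minimum of 10 counts per library, a replicate block, the rounded RSEM expected counts, each library left out, and, for control levels, TPM or counts per kilobase of exon. Added after seeing the data were DESeq2 on the expected counts, edgeR without its legacy form, mitochondrial genes left out, the feeder markers without Fn1, and Txnip and Gm15441 summed.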

Additional observations from a re-analysis of the deposited data

How the results depend on the processing

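Over all genes, 103 were called higher and 65 lower. These counts moved to 190 and 168 with DESeq2, to 482 and 325 without a filter, and to 27 and 17 on the RSEM expected counts, while library totals alone gave 40 lower and DESeq2 on the expected counts, added after seeing the data, gave 137 lower. Leaving out 1 library gave 45 to 502 higher and 39 to 367 lower, with 45 and 39 without control replicate 1, 167 and 148 without control replicate 2, 372 and 270 without lactate replicate 1, and 502 and 367 without lactate replicate 2. The lone library of a group was then assumed to vary like the other group. A replicate block gave 761 higher and 395 lower. Same-numbered libraries deviated together (r = 0.561 across genes), but the labels give them only a shared number.

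Of the genes in the pathway lists 2 were called, and 3 with DESeq2, 5 without a filter, 5 with the replicate block and 1 on the expected counts. Leaving out 1 library could also change these calls, but they are not given, since a group then holds a lone library. The calls over all genes moved in the same directions. They were 103 higher and 65 lower of 18661 tested, and 482 and 325 of 32923 without a filter. With the block they were 761 and 395 of 18661, and on the expected counts 27 and 17 of 15595. The cause of these moves was not tested.

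None of the 9 genes changed sign under any of these alternatives, and 124 of their 133 values moved by less than the spread between replicates. This share is no measure of robustness. Leaving out 1 of 2 libraries moves a group mean by less than the gap between them, and several alternatives are near repeats of the main fit. Over all single values, list medians and the genes most like Txnip, 253 were counted as unmoved and 29 as moved. The 29 include every control level in TPM, a unit with another total, and per kilobase of exon. They also include the genes most like Txnip by Pearson correlation, judged by their 0 shared genes and not by a spread. With 1 library left out, list medians ranged from -0.28 to -0.04 for MondoA and ChREBP targets, -0.48 to -0.30 for MAX and MLX partners, -0.36 to 0.06 for glucose uptake, -0.37 to -0.10 for the thioredoxin system, -0.13 to -0.01 for arrestin-fold proteins, -0.22 to 0.04 for NEDD4 ligases (0.04 without control replicate 1) and -0.19 to 0.21 for NLRP3, so those of glucose uptake, NEDD4 and NLRP3 changed sign. That of AMPK was -0.14 without lactate replicate 1 and about 0 without lactate replicate 2. Library totals alone also gave 0.03 for NEDD4, and DESeq2 on the expected counts 0.05 for arrestin-fold proteins. Gm15441 went down to 1.13 on the log2 scale with DESeq2 on the expected counts (standard error 1.02), where it had few reads, and was filtered out of the edgeR fit on them. Depth limits Arrdc1, Arrdc2 and Mlxipl most, at 134 to 340 reads per library.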
